A study of Mus musculus with 10 samples.

Results

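The genes described here are 39 mouse genes that build, anchor or regulate the junctions and keratin filaments of epithelial cells. They were taken as the rows, among 38924 gene rows of every count file, whose Ensembl identifier carries one of these symbols in GENCODE M21, and all 39 were found. They fall into 8 role groups: surface adhesion (Cdh1 and Epcam), 9 claudins, 7 other tight junction genes, 7 desmosome genes, 4 keratins, 5 transcription or splicing regulators, 2 polarity and trafficking genes, and a protease with its inhibitors (3 genes). RNA sequencing was performed on 10 sorted samples, all derived from mouse embryonic stem cells (mESCs) that carry a truncated human CD4 (hCD4) at the Foxa2 locus, so that surface hCD4 reports Foxa2 expression. Embryoid bodies were sorted at day 5. Cardiac mesoderm (CM) was sorted as Kdr+ Pdgfra+ cells and divided into hCD4+ cells (Foxa2+ CM, 3 samples) and hCD4- cells (Foxa2- CM, 3 samples). Kdr+ haematopoietic mesoderm, labelled Flk1+ high (2 samples), came from the same cardiac protocol with Activin A at 8 ng/ml, VEGF at 5 ng/ml and BMP4 at 1 ng/ml. The hCD4+ endoderm (2 samples) came from cultures given Activin A at 75 ng/ml instead. All groups therefore share 1 reporter allele and embryoid bodies of mESC origin, while endoderm also differs from the other groups in its culture. Nothing in the labels says whether samples of a group came from separate cultures, so p-values measure the spread between these samples, which may be technical.

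Epithelial cells are held together by adherens junctions, whose cadherin in most epithelia is E-cadherin (Cdh1), by tight junctions, whose claudin strands set what passes between cells, and by desmosomes, which tie the keratin filaments of neighbouring cells together. At gastrulation, epiblast cells that ingress to form mesoderm lose much of this machinery, and the SNAI and ZEB repressors are known to bind E-box sequences in promoters of epithelial genes. Definitive endoderm is an epithelium in the embryo, whereas cardiac and haematopoietic mesoderm are mainly mesenchymal at this stage.

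Levels are given as CPM, the usual scaling of a gene's counts to the size of its library, here after TMM normalization, and differences as log2 fold changes with their standard error (SE). A gene was called where the quasi-likelihood test of edgeR gave it a Benjamini-Hochberg adjusted p, over all genes tested, under 0.05. Gene totals ranged from 10926284 to 17470126 counts per sample, and 3 counts correspond to 0.169 to 0.279 CPM. The sort genes followed the labels: Kdr ranged from 353 to 440 CPM in CM and was at 554 and 592 CPM in Flk1+ high and at 6.24 and 9.94 CPM in endoderm. Foxa2 ranged from 3.49 to 20 CPM in the Foxa2+ CM samples, from 0.872 to 2.54 CPM in the Foxa2- CM samples and from 182 to 185 CPM in endoderm. Replicate 3 stood apart in both CM groups, with Foxa2 at 3.49 CPM in Foxa2+ CM against 20 and 16 CPM in the other samples, and with Cdh5, the endothelial cadherin, at 43.4 CPM in Foxa2- CM against 2.84 and 1.98 CPM. The samples labelled Flk1+ high also differed from each other, as shown for several genes below. Endoderm held transcripts of the pluripotent epiblast. The summed level of 7 such markers was 1432 to 1506 CPM there, against 337 to 429 CPM in the CM groups. Node and notochord genes were mixed. Of 5 listed, 4 were tested against Foxa2+ CM, with 2 called higher in endoderm and 1 lower (18.3% and 16.7% of all genes). Chrd was at 250 and 197 CPM in endoderm, while Nog had 5 and 17 counts there and 43 to 77 counts in Foxa2+ CM. The part of such cells in the results was not tested, and in sorted bulk samples fewer cells of a type and less RNA per cell cannot be told apart.

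**Figure D1:**
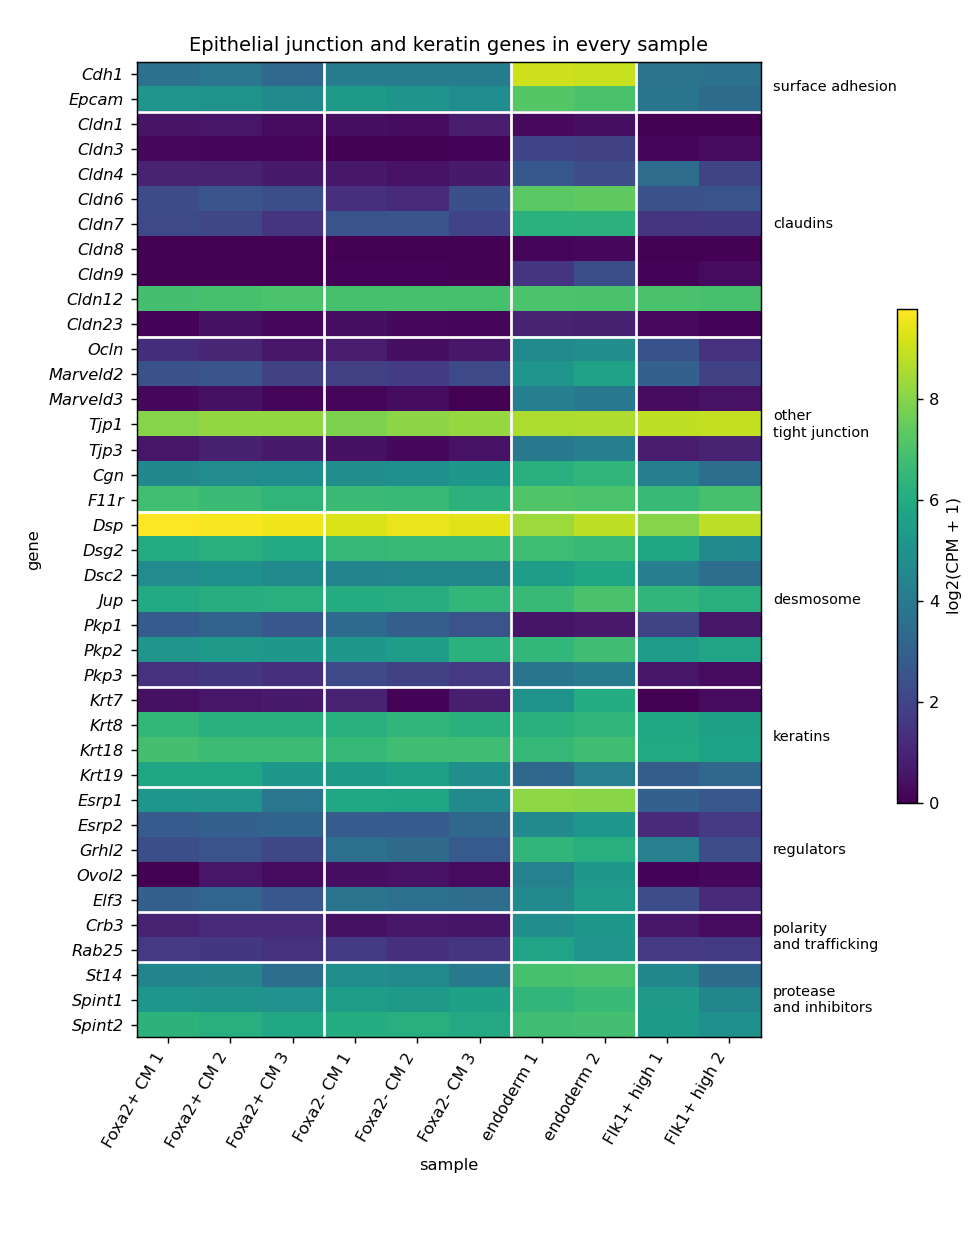
Level of the 39 genes (rows, ordered by role) in the 10 samples (columns), as log2(CPM + 1) on a colour scale. The endoderm columns are the brightest for Cdh1, Cldn6, Cldn7 and Esrp1, while Cldn12, Krt8 and Krt18 keep a like colour in CM and endoderm.

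Promoter sequences are shown first because many of the genes share a short motif beside their start sites, whether or not their levels differed between the groups. RefSeq promoter windows (GRCm38.p6, 250 bases before to 50 after a start) matched 24 of the 39 genes, with 31 windows. The E-box searched was CACCTG or its reverse complement CAGGTG. It was present in 17 of the 24 genes (70.8%), against 22.6% of the 27025 genes of the table. The genes' windows were richer in G and C, with a median of 60.7% against 52.7% over all windows. Among all windows of 55 to 65% the E-box was present in 23.8%, against 14 of the 17 windows of these genes in that band. From 45 to 55% it was present in 22.4% against 3 of 5, and from 65 to 75% in 19.7% against 4 of 9. In 21 of the 31 windows the 50 bases after the start were found in a GENCODE M21 transcript of the gene, so that some starts may be misplaced. The grainyhead motif AACCNGTT was found in 2 genes (Cgn and Rab25; 8.33% against 2.35%), and the forkhead motif TGTTTAC or GTAAACA in none of the 24 windows' genes (4.05% of all genes). A match is a run of letters and not a shown binding site. The 6 stretches printed here are upstream bases that no GENCODE M21 exon covers, 5′ to 3′ in the direction of the gene, with E-box and grainyhead matches in capitals. Epcam, Rab25, Spint2 and Cldn4 were called higher in endoderm than in CM, Krt18 was not, and Cldn12 was called in no comparison.
Epcam, chr17:87635729-87635978, plus strand, 2 E-boxes: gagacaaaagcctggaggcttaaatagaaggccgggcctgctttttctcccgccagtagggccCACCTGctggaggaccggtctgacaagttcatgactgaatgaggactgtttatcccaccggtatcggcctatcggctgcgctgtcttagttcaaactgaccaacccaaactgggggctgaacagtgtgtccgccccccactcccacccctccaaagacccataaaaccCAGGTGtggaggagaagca
Rab25, chr3:88548301-88548529, minus strand, 2 E-boxes and 1 grainyhead match: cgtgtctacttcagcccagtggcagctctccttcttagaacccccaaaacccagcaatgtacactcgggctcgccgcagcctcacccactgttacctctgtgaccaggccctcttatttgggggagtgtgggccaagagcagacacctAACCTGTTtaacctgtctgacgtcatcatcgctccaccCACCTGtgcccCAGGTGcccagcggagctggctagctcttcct
Spint2, chr7:29281978-29282227, minus strand, 3 E-boxes: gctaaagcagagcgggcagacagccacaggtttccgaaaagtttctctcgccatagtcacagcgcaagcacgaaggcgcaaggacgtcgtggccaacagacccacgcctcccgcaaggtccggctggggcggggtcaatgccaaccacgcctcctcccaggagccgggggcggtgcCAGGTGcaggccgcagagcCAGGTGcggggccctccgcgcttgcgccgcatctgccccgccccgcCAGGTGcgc
Cldn4, chr5:134946935-134947184, minus strand, 1 E-box: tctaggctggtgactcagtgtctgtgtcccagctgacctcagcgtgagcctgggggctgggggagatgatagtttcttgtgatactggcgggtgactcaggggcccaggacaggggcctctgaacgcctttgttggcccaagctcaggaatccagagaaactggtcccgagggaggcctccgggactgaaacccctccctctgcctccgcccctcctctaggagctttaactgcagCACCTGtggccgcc
Krt18, chr15:102027966-102028179, plus strand, 1 E-box: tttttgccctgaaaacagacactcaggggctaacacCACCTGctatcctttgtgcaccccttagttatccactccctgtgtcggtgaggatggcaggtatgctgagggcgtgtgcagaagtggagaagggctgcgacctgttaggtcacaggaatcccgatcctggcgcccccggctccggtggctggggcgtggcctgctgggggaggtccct
Cldn12, chr5:5514977-5515226, minus strand, no match: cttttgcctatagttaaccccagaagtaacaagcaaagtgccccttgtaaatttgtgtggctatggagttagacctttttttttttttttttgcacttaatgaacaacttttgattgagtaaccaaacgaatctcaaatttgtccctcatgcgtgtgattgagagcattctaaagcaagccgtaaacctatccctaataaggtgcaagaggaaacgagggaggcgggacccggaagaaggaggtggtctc
Of the genes with a window, 13 of 18 called higher in endoderm than in Foxa2+ CM held the E-box. So did 3 of 4 not called (F11r, Krt8 and Krt18) and the 1 called lower (Dsp), while Cldn1, not tested, did not. With so few genes not called higher, and 15 of the 39 genes without a window (Cdh1 among them), these counts cannot show whether the E-box goes with the change.

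The first comparison asked how far endoderm differed from both CM groups. Of 37 genes tested (Cldn1 and Cldn8 were too low), 29 were called higher in endoderm than in Foxa2+ CM and 3 lower, where 18.3% and 16.7% of all 16180 genes were called higher and lower. Against Foxa2- CM, 30 were called higher and 3 lower (16.1% and 14% of all genes). The median log2 fold change of the 37 genes was 2.28 against Foxa2+ CM and 2.14 against Foxa2- CM, and that of all genes was 0.01 in both. With Cldn9, which had no count in Foxa2+ CM, at its bound, the first median was again 2.28. Both comparisons share the endoderm samples. Cldn3, Cldn9, Cldn23, Marveld3, Tjp3 and Ovol2 were too low to be tested in the fit of the 6 CM samples. They were tested only with the other samples in the fit, and all were called higher in endoderm than in each other group. The filter favours that direction for such genes, so their calls add little to these counts. The 29 genes called higher against both CM groups were joined by F11r against Foxa2- CM only, and the 3 lower genes were Dsp, Pkp1 and Krt19 in both. Without replicate 3 of the CM groups, 28 were called higher and 3 lower against Foxa2+ CM, and 29 and 2 against Foxa2- CM. Without endoderm replicate 1, the number lower than in Foxa2- CM was 1.

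Cdh1 (E-cadherin; chr8:106603351-106670246, plus strand, protein coding) was abundant in endoderm and low in every mesoderm sample. It was at 544 and 492 CPM in endoderm, at 11.5, 13.5 and 9.13 CPM in Foxa2+ CM, at 16.6, 16.5 and 16.7 CPM in Foxa2- CM, and at 12.5 and 11.6 CPM in Flk1+ high. Both endoderm samples lay far above the other 8, which stayed within a narrow band. The log2 fold change was 5.51 (SE 0.13, edgeR adjusted p = 8.9e-08) against Foxa2+ CM and 4.96 (SE 0.13, adjusted p = 1.3e-07) against Foxa2- CM. Epcam (chr17:87635979-87651129, plus strand), a homophilic adhesion molecule, was graded rather than switched. The study used it as an endoderm marker in embryos, not to sort these samples. It was at 147 and 127 CPM in endoderm, at 33.6, 31.4 and 23.8 CPM in Foxa2+ CM, at 39, 32.5 and 26.3 CPM in Foxa2- CM and at 12.8 and 9.91 CPM in Flk1+ high. The endoderm and Flk1+ high samples did not overlap with any CM sample, and the CM groups overlapped with each other. Endoderm was 4.62-fold above Foxa2+ CM (log2 2.21, SE 0.19, adjusted p = 4.2e-05), and Flk1+ high was 2.6-fold below it (log2 -1.38, SE 0.21, adjusted p = 0.0022).

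Of the claudins, the strand-forming proteins of the tight junction, 6 of 7 tested were called higher in endoderm than in each CM group. Of all genes, 18.3% were called higher against Foxa2+ CM and 16.1% against Foxa2- CM. Cldn3, Cldn9 and Cldn23 are among the 6 and were too low for the CM fit, so the filter favoured that direction for them. Cldn6 (chr17:23679249-23682446, plus strand), a claudin of early embryonic epithelia, was at 153 and 169 CPM in endoderm. It was at 3.72, 5.03 and 4.06 CPM in Foxa2+ CM, at 1.55, 1.27 and 4.28 CPM in Foxa2- CM and at 4.32 and 4.88 CPM in Flk1+ high, a difference of 37.6-fold from Foxa2+ CM (log2 5.23, SE 0.36, adjusted p = 1.1e-05). In Foxa2- CM its replicate 3 sat with the Foxa2+ samples and replicates 1 and 2 below all others. Cldn7 (chr11:69964779-69967885), found along the lateral membrane of many epithelia, was at 75.8 and 77.5 CPM in endoderm, at 3.43, 3.24 and 1.86 CPM in Foxa2+ CM, at 4.89, 4.92 and 2.87 CPM in Foxa2- CM and at 1.75 and 1.97 CPM in Flk1+ high. The endoderm samples again stood clear, 27-fold above Foxa2+ CM (log2 4.76, SE 0.29, adjusted p = 6.2e-06).

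Cldn3 and Cldn9 were low in endoderm and at or near 0 elsewhere. Cldn3 was at 2.89 and 2.67 CPM in endoderm, at 0.146, 0.116 and 0.113 CPM in Foxa2+ CM, at 0, 0 and 0.0564 CPM in Foxa2- CM and at 0.125 and 0.236 CPM in Flk1+ high. Only the endoderm samples were above the level of 3 counts in a library. Cldn9, which lies 137 bases from Cldn6 on the opposite strand, was at 1.77 and 4.09 CPM in endoderm and had no count in the 3 Foxa2+ CM samples, so that endoderm was at least 47.6-fold higher (against 3 counts over the group). It was at 0.0618, 0.0793 and 0 CPM in Foxa2- CM and at 0.0627 and 0.236 CPM in Flk1+ high. Cldn23 was called higher as well, at 0.931 and 0.836 CPM in endoderm against at most 0.347 CPM elsewhere, and lost its call without Foxa2+ CM replicate 3 or without either endoderm sample.

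Cldn4 and Cldn12 departed from the other claudins. Cldn4 (chr5:134945119-134946934, minus strand), a barrier claudin of many epithelia, was at 5.49 and 3.93 CPM in endoderm, at 0.949, 0.925 and 0.62 CPM in Foxa2+ CM and at 0.557, 0.397 and 0.62 CPM in Foxa2- CM, but at 10.2 and 2.99 CPM in Flk1+ high. Its neighbour Cldn3, 39.3 kb away on the opposite strand, stayed near 0 in Flk1+ high. Cldn12 (chr5:5489537-5514958, minus strand) was at 119 to 127 CPM in Foxa2+ CM, 120 to 122 in Foxa2- CM, 129 and 125 in endoderm and 123 and 120 in Flk1+ high. It was called in none of the 6 comparisons, with a log2 difference of 0.05 (SE 0.06) between endoderm and Foxa2+ CM. Cldn1 reached at most 0.733 CPM and Cldn8 at most 0.167 CPM in any sample, and Cldn8 was above 0 only in endoderm.

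Expressed per exonic kilobase (RPKM, on the GENCODE M21 exon union), which allows genes to be set beside each other, the make-up of the 9 claudins changed between groups. Cldn12 held 84.2 to 88.7% of summed claudin RPKM in the CM samples and 75.9 to 82.9% in Flk1+ high, but 16.9 to 18.4% in endoderm, where its own level was like that elsewhere. Cldn6 held 53.8 to 56.1% and Cldn7 22.7 to 23.5% in endoderm, against 2.27 to 8.45% and 2.81 to 7.76% in CM. The summed claudin level was 166 and 175 RPKM in endoderm and 32.5 to 38.4 RPKM in the other 8 samples.

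**Figure D2:**
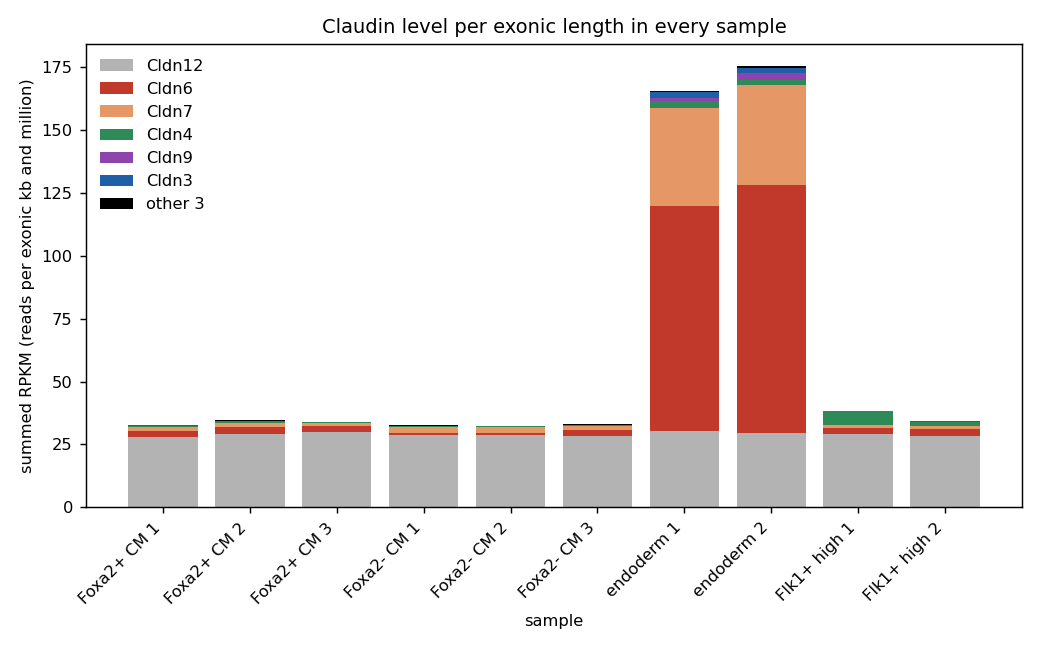
Summed level of the 9 claudins in each sample, as RPKM (reads per exonic kilobase, scaled to library size), stacked by gene, 1 bar per sample. The grey Cldn12 block is alike in all bars, and Cldn6 and Cldn7 make up most of the 2 tall endoderm bars (166 and 175 RPKM).

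Among the other tight junction genes, 6 of 7 were called higher in endoderm than in Foxa2+ CM (18.3% of all genes). Against Foxa2- CM, 7 of 7 were (16.1% of all genes). Marveld3 and Tjp3 are among them and were too low for the CM fit, so the filter favoured that direction for both. Marveld3 (chr8:109947914-109962203) was at 17.7 and 14.5 CPM in endoderm, at 0.146, 0.347 and 0.113 CPM in Foxa2+ CM, at 0.124, 0.238 and 0 CPM in Foxa2- CM and at 0.251 and 0.393 CPM in Flk1+ high (log2 6.24, SE 0.52, adjusted p = 3.2e-05 against Foxa2+ CM). Occludin (Ocln; chr13:100496507-100552718) was at 23.8 and 27.7 CPM in endoderm, at 1.46, 1.1 and 0.563 CPM in Foxa2+ CM and at 0.68, 0.317 and 0.564 CPM in Foxa2- CM. In Flk1+ high it was at 4.51 and 1.65 CPM, between the CM groups and endoderm. Endoderm was 25-fold above Foxa2+ CM (log2 4.64, SE 0.46, adjusted p = 8.5e-05). Tricellulin (Marveld2), which seals the corners where 3 cells meet and lies 43.2 kb from Ocln, was at 33.1 and 49.4 CPM in endoderm, at 4.38, 5.03 and 2.82 CPM in Foxa2+ CM, at 2.66, 2.3 and 3.5 CPM in Foxa2- CM and at 7.02 and 2.67 CPM in Flk1+ high. The endoderm samples stood clear of the rest, and the CM groups overlapped.

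The junction is anchored by scaffold proteins beneath the membrane. Among them Tjp3 (ZO-3) was at 14.6 and 17.8 CPM in endoderm, at 0.511, 0.867 and 0.62 CPM in Foxa2+ CM, at 0.371, 0.159 and 0.395 CPM in Foxa2- CM and at 0.689 and 0.944 CPM in Flk1+ high (log2 4.57, SE 0.31, adjusted p = 1.1e-05 for endoderm against Foxa2+ CM). Tjp1 (ZO-1; chr7:65296165-65527781), which is also used at the junctions of endothelial and mesenchymal cells, was at 385 and 389 CPM in endoderm, at 255, 293 and 291 CPM in Foxa2+ CM, at 230, 269 and 301 CPM in Foxa2- CM, and highest in Flk1+ high at 455 and 471 CPM. No endoderm or Flk1+ high sample overlapped with a CM sample, yet endoderm exceeded Foxa2+ CM by only 1.38-fold (log2 0.47, SE 0.11, adjusted p = 0.0077), a call that was lost without Foxa2+ CM replicate 1 or either endoderm sample. Cingulin (Cgn) was at 70.4 and 86.2 CPM in endoderm and at 22.6 to 35.7 CPM in CM (log2 1.67, SE 0.20 against Foxa2+ CM). F11r (JAM-A), an adhesion molecule shared with endothelium and blood cells, was at 139 and 128 CPM in endoderm and 77.1 to 114 CPM in CM, and did not pass the test against Foxa2+ CM (log2 0.42, SE 0.15, adjusted p = 0.057).

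Desmosome genes did not move as a block. Of 7 tested, 4 were called higher in endoderm than in Foxa2+ CM (Pkp3, Pkp2, Dsc2 and Jup) and 2 lower (Dsp and Pkp1). Of all genes, 18.3% were called higher and 16.7% lower. Desmoplakin (Dsp; chr13:38151294-38198577), which links the plaque to keratin, was at 881, 827 and 768 CPM in Foxa2+ CM, at 604, 719 and 654 CPM in Foxa2- CM, at 329 and 460 CPM in endoderm and at 255 and 447 CPM in Flk1+ high. Every CM sample lay above every endoderm and Flk1+ high sample, and every Foxa2+ CM sample above every Foxa2- CM sample. Endoderm was 2.09-fold below Foxa2+ CM (log2 -1.06, SE 0.22, adjusted p = 0.0052), a call lost without endoderm replicate 1. Plakophilin 1 (Pkp1; chr1:135871395-135919207), a plaque protein of stratified epithelia, was at 6.21, 7.63 and 5.24 CPM in Foxa2+ CM, at 9.83, 6.82 and 4.62 CPM in Foxa2- CM, at 0.465 and 0.585 CPM in endoderm and at 3.01 and 0.551 CPM in Flk1+ high. It was 11.9-fold lower in endoderm than in Foxa2+ CM (log2 -3.57, SE 0.69, adjusted p = 0.0035).

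The plakophilins thus differed in opposite directions. Pkp3 was at 13 and 16.5 CPM in endoderm, at 1.61, 2.02 and 1.58 CPM in Foxa2+ CM, at 3.53, 2.85 and 2.09 CPM in Foxa2- CM and at 0.501 and 0.236 CPM in Flk1+ high. Its 4 groups did not overlap, and endoderm was 8.45-fold above Foxa2+ CM (log2 3.08, SE 0.29, adjusted p = 7e-05). Pkp2, the plakophilin of heart muscle as well as of simple epithelia, was at 88.4 and 108 CPM in endoderm, at 33.2, 38.3 and 36.6 CPM in Foxa2+ CM, at 35.9, 43.8 and 75.2 CPM in Foxa2- CM and at 39.9 and 51.8 CPM in Flk1+ high. The 75.2 CPM came from replicate 3 and lay above both Flk1+ high samples. Plakoglobin (Jup), shared by desmosomes and adherens junctions, was at 96.6 and 123 CPM in endoderm and at 61.6 to 87.7 CPM in CM (log2 0.74, SE 0.15 against Foxa2+ CM), and the desmosomal cadherin Dsc2 at 43.3 and 54.4 CPM against 20.3 to 29.3 CPM (log2 0.89, SE 0.19). Both calls against Foxa2+ CM were lost without endoderm replicate 2. Per exonic length, Dsp made up 60.2 to 75.3% of summed desmosome RPKM in CM and 37.7 to 41.9% in endoderm.

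The keratins showed 3 patterns. Krt8 and Krt18, the partner keratins of simple epithelia, lie 23.7 kb apart on chromosome 15 (chr15:101996698-102004482, minus strand, and chr15:102028180-102032027, plus strand). Krt8 was at 87.6, 72.5 and 73.5 CPM in Foxa2+ CM, at 71.4, 86 and 73 CPM in Foxa2- CM, at 73.5 and 86.5 CPM in endoderm and at 57.3 and 46.6 CPM in Flk1+ high. Krt18 was at 117, 103 and 104 CPM in Foxa2+ CM, at 92.3, 109 and 109 CPM in Foxa2- CM, at 90.2 and 109 CPM in endoderm and at 61.1 and 50.2 CPM in Flk1+ high. CM and endoderm overlapped for both genes, and Flk1+ high lay below all other samples. The log2 difference between endoderm and Foxa2+ CM was 0.04 (SE 0.13) for Krt8 and -0.12 (SE 0.12) for Krt18. Per exonic length the ratio of Krt8 to Krt18 was 0.494 to 0.598 in CM and endoderm and 0.681 to 0.689 in Flk1+ high. Both genes have processed pseudogenes, whose share of the reads was not tested.

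Krt19 and Krt7 went in opposite directions. Krt19 (chr11:100140810-100148665), a small keratin of simple and ductal epithelia, was at 52.8, 52.8 and 35.9 CPM in Foxa2+ CM, at 39.5, 45.9 and 28.7 CPM in Foxa2- CM, at 8.75 and 18.2 CPM in endoderm and at 6.39 and 8.73 CPM in Flk1+ high. All 6 CM samples lay above the other 4, and endoderm was 3.48-fold below Foxa2+ CM (log2 -1.80, SE 0.34, adjusted p = 0.0029). Krt7 (chr15:101411043-101430313), a keratin of glandular epithelia, was at 30.4 and 65.2 CPM in endoderm, at 0.365, 0.52 and 0.62 CPM in Foxa2+ CM, at 0.928, 0.0793 and 0.789 CPM in Foxa2- CM and at 0 and 0.236 CPM in Flk1+ high. The endoderm samples differed from each other but both lay far above the rest (log2 6.53, SE 0.63, adjusted p = 7.3e-05 against Foxa2+ CM). Of the keratins of stratified epidermis, Krt5 had a count only in endoderm (0.372 and 1.17 CPM), Krt14 was at most at 0.236 CPM, and Krt10 was at 14 to 16.1 CPM in CM, 11.4 and 12.3 CPM in endoderm and 13.8 and 11.3 CPM in Flk1+ high.

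**Figure D3:**
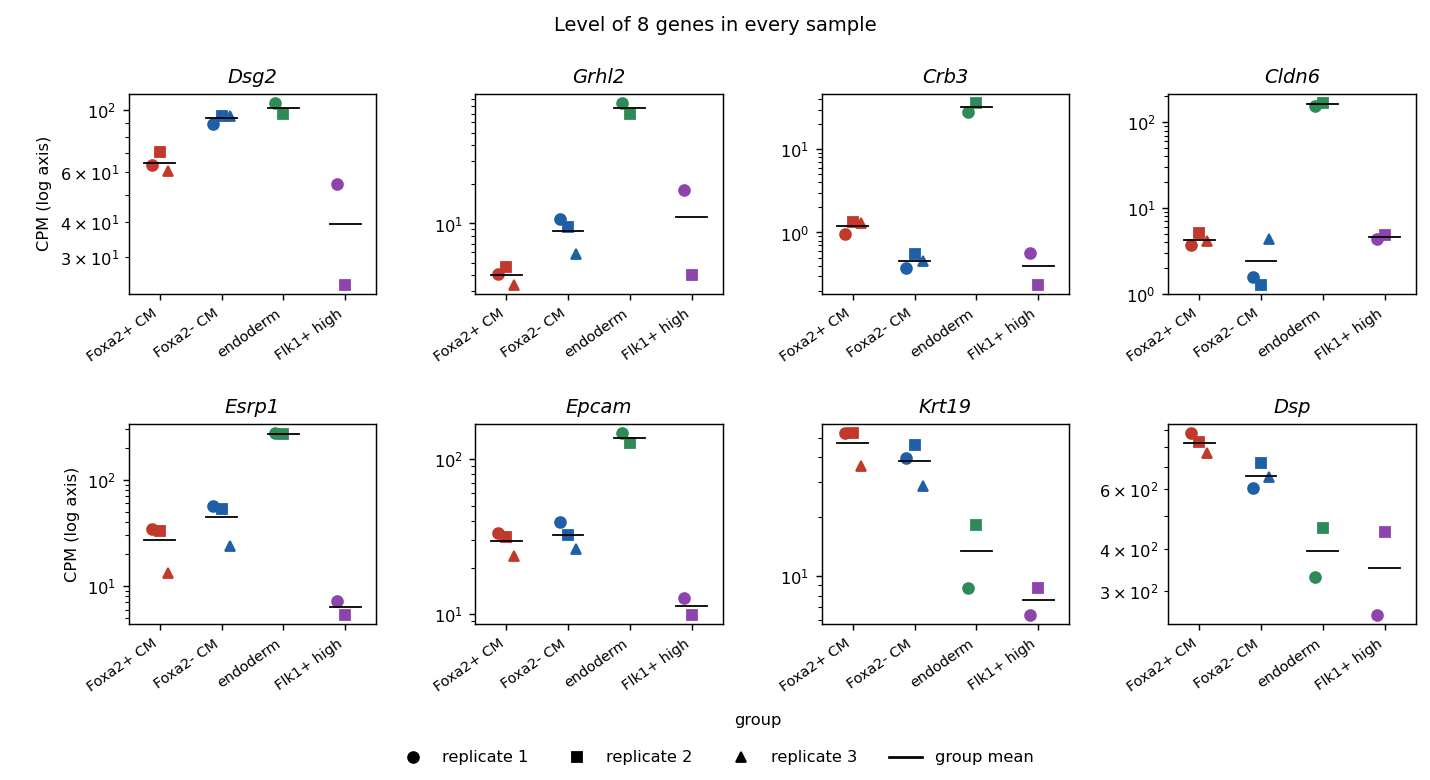
CPM of 8 genes (log axis) in every sample, by group, with replicates 1, 2 and 3 as circles, squares and triangles and the group mean as a bar. Dsp and Krt19 are highest in the CM groups, and replicate 3 is the lowest CM sample of its group for Esrp1 and Epcam.

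All 5 regulators were called higher in endoderm than in each CM group, as were 18.3% of all genes against Foxa2+ CM and 16.1% against Foxa2- CM. Ovol2 was too low for the CM fit, so the filter favoured that direction and its call adds little. Esrp1, which with Esrp2 imposes the epithelial pattern of splicing, was at 275 and 266 CPM in endoderm (chr4:11331933-11386783). It was at 34.3, 33.2 and 13.4 CPM in Foxa2+ CM, at 56.9, 52.9 and 24 CPM in Foxa2- CM and at 7.27 and 5.35 CPM in Flk1+ high. The CM levels thus lay between those of endoderm and Flk1+ high in every sample, with replicate 3 the lowest of each CM group, and endoderm was 10.1-fold above Foxa2+ CM (log2 3.33, SE 0.41, adjusted p = 0.00031). Ovol2 (chr2:144305175-144332146), a repressor of mesenchymal genes that include Zeb1, was at 18.5 and 36.1 CPM in endoderm, at 0, 0.52 and 0.225 CPM in Foxa2+ CM, at 0.309, 0.397 and 0.225 CPM in Foxa2- CM and at 0.0627 and 0.157 CPM in Flk1+ high. Its endoderm samples stood apart from samples that had next to no reads (log2 6.66, SE 0.61, adjusted p = 5.3e-05). Grhl2 (chr15:37233036-37363569), a grainyhead factor that activates Cdh1 and Cldn4 in epithelia, was at 85 and 69.7 CPM in endoderm, at 4.09, 4.62 and 3.38 CPM in Foxa2+ CM, at 10.8, 9.36 and 5.86 CPM in Foxa2- CM and at 18.2 and 4.01 CPM in Flk1+ high. Only the endoderm samples and Flk1+ high replicate 1 lay above all CM samples (log2 4.26, SE 0.51, adjusted p = 0.00025 for endoderm against Foxa2+ CM).

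The ETS factor Elf3 was at 23.9 and 41.9 CPM in endoderm, at 6.94, 8.21 and 5.24 CPM in Foxa2+ CM, at 12.6, 11 and 10.2 CPM in Foxa2- CM and at 3.95 and 1.26 CPM in Flk1+ high. The 4 groups did not overlap. Esrp2 was at 24.1 and 34.5 CPM in endoderm, at 5.99, 7.28 and 7.94 CPM in Foxa2+ CM, at 6.18, 6.11 and 9.02 CPM in Foxa2- CM and at 1.32 and 2.12 CPM in Flk1+ high (log2 2.05, SE 0.26 for endoderm against Foxa2+ CM). Crb3 (chr17:57059105-57065918), an apical polarity protein of epithelia, was at 27.8 and 36.3 CPM in endoderm, at 0.949, 1.33 and 1.3 CPM in Foxa2+ CM, at 0.371, 0.555 and 0.451 CPM in Foxa2- CM and at 0.564 and 0.236 CPM in Flk1+ high (log2 4.73, SE 0.28, adjusted p = 5.7e-06 against Foxa2+ CM). Rab25 (chr3:88542029-88548300), an epithelial GTPase of recycling endosomes, was at 51.4 and 33.4 CPM in endoderm, at 2.04, 2.02 and 1.69 CPM in Foxa2+ CM, at 2.16, 1.59 and 1.86 CPM in Foxa2- CM and at 2.07 and 2.2 CPM in Flk1+ high (log2 4.46, SE 0.24, adjusted p = 3.5e-06). For both genes the endoderm samples lay far above the other 8.

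The membrane protease matriptase (St14; chr9:31089402-31131853) was at 122 and 125 CPM in endoderm, at 20.4, 20.9 and 10.5 CPM in Foxa2+ CM, at 26.8, 24.8 and 14.4 CPM in Foxa2- CM and at 21.4 and 9.99 CPM in Flk1+ high. The mesoderm groups overlapped, and endoderm was 7.18-fold above Foxa2+ CM (log2 2.84, SE 0.37, adjusted p = 0.00043). Its inhibitors differed less. Spint1 was at 86.4 and 94.6 CPM in endoderm, at 34, 32 and 29.6 CPM in Foxa2+ CM, at 42.2, 37.7 and 47.6 CPM in Foxa2- CM and at 37.5 and 21.7 CPM in Flk1+ high (log2 1.51, SE 0.19). Spint2 was at 108 and 116 CPM in endoderm, at 79.2, 69 and 55.8 CPM in Foxa2+ CM, at 65.1, 70.5 and 58.7 CPM in Foxa2- CM and at 39.4 and 29.4 CPM in Flk1+ high (log2 0.72, SE 0.16, adjusted p = 0.0068). The endoderm samples lay above, and the Flk1+ high samples below, every CM sample for Spint2.

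**Figure D4:**
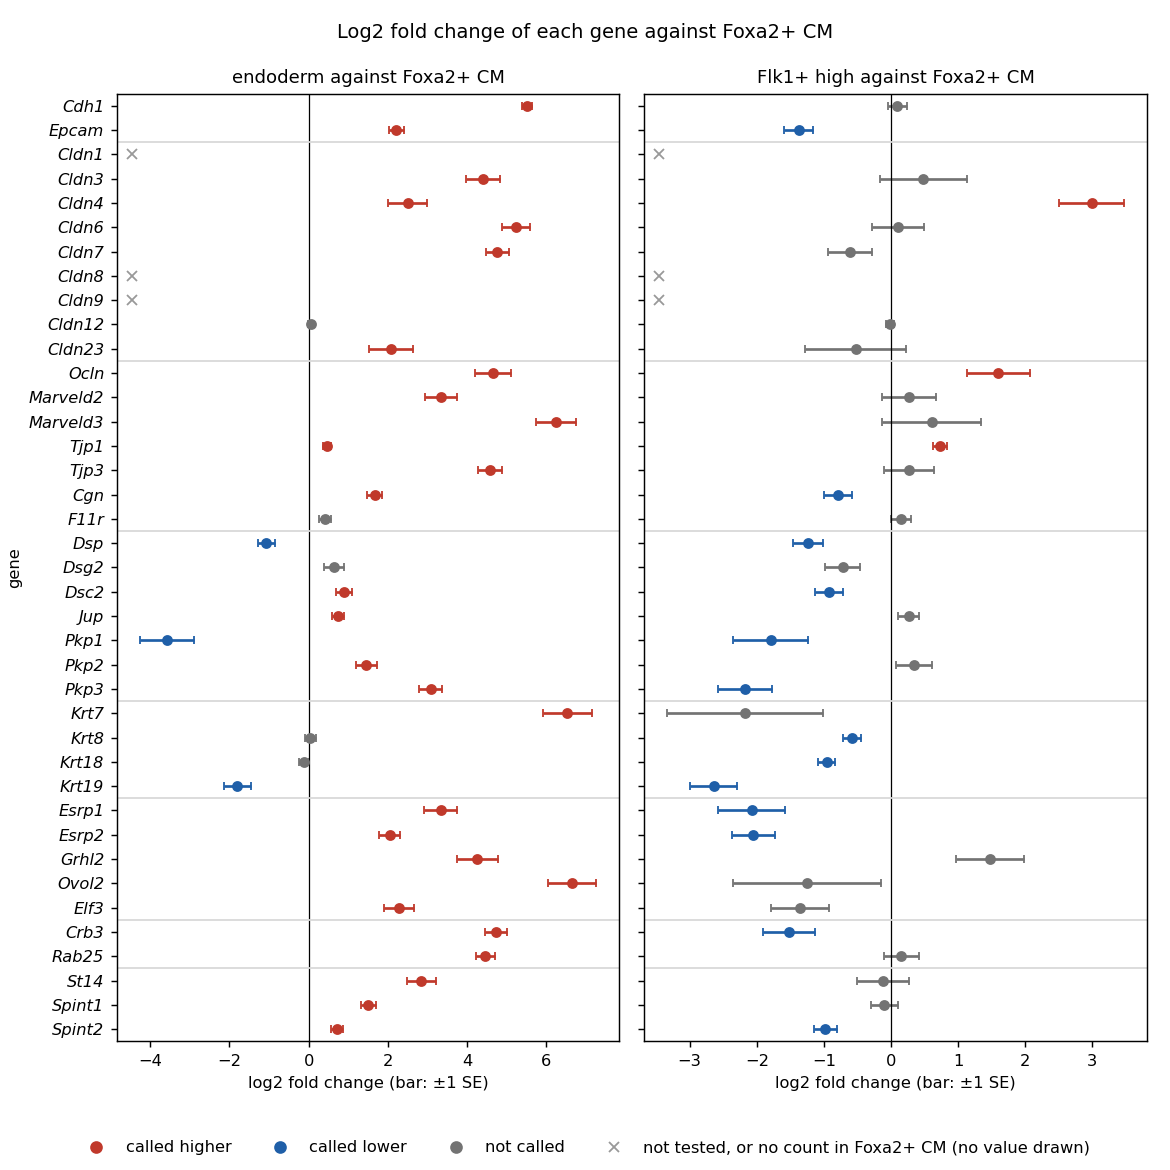
Log2 fold change of each gene with its SE (bars), for endoderm against Foxa2+ CM (left) and Flk1+ high against Foxa2+ CM (right), coloured by call. On the left 29 of 37 tested genes are called higher and 3 lower, and on the right 3 are called higher and 13 lower. Both panels share the Foxa2+ CM samples, and crosses at the edge mark genes with no value drawn, among them Cldn9, which is called higher on the left but had no count in Foxa2+ CM.

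The next comparison set the 2 CM groups against each other, which asks whether CM with Foxa2 expression kept more of the epithelial genes. Few of them were called: of 31 genes tested, 1 was called higher and 2 lower in Foxa2+ CM. Over all 15284 genes, 3.81% were called higher and 2.66% lower, so that these counts are near the share of all genes. The median log2 fold change was -0.01 (0.00 over all genes). Genes not called may still differ, since this fit recovered 38% of log2 changes of 0.5 in simulated data. The changed genes there were drawn only from genes with higher counts. The rate therefore does not cover genes with few counts, such as Crb3, Ocln, Cldn4 and Krt7. Desmoglein 2 (Dsg2, on chromosome 18), the desmosomal cadherin found in every desmosome-bearing tissue, was at 63.5, 70.8 and 60.5 CPM in Foxa2+ CM and at 89.4, 94.9 and 95.4 CPM in Foxa2- CM. The groups did not overlap, and Foxa2+ CM was 1.44-fold lower (log2 -0.52, SE 0.07, edgeR adjusted p = 0.0081), a call that was lost without Foxa2- CM replicate 2 (adjusted p = 0.0509). In endoderm Dsg2 was at 106 and 96.3 CPM and in Flk1+ high at 54.4 and 23.9 CPM.

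Grhl2, whose values are given above, was 2.14-fold lower in Foxa2+ CM (log2 -1.10, SE 0.25, adjusted p = 0.042) and did not overlap between the groups. Crb3 was higher in each Foxa2+ CM sample than in each Foxa2- CM sample (log2 1.39, SE 0.30, adjusted p = 0.033), levels that rest on 13, 23 and 23 counts against 6, 7 and 8 counts. Each of these 2 calls was kept in 1 of 6 fits with a sample left out, the fit without Foxa2- CM replicate 3. Cdh1 was lower in each Foxa2+ CM sample than in each Foxa2- CM sample but did not pass the test (log2 -0.54, SE 0.16, adjusted p = 0.094), nor did Dsp, which was higher in each (log2 0.33, SE 0.09, adjusted p = 0.088). The counts of called genes moved with the fit. DESeq2 called Dsp higher (adjusted p = 0.0061) and 5 genes lower, among them Cdh1 (adjusted p = 0.038), where 4.42% and 3.46% of all genes were called. Crb3 lost its call there (adjusted p = 0.20). The calls were 2 higher and 4 lower in a fit with no filter on low counts (2.53% and 2.21%), and 3 and 9 in a fit with the replicate number as a block (9.15% and 7.58%), which called Cdh1 lower too (adjusted p = 0.014). With all 10 samples in 1 fit none of the genes was called (1.04% and 0.735%), where the adjusted p was 0.34 for Dsg2, 0.33 for Grhl2 and 0.071 for Crb3. In the 6-sample edgeR fit, 3 were higher and 7 lower at an unadjusted p under 0.05. Krt8 (log2 0.02, SE 0.10), Rab25 (log2 0.03, SE 0.22) and Cldn12 (log2 0.03, SE 0.05) lay close to no difference.

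In both CM groups replicate 3 had the lowest value for 12 of the 37 genes tested in the 10-sample fit (Epcam, Cldn7, Marveld3, F11r, Pkp1, Pkp3, Krt19, Esrp1, Grhl2, Elf3, St14 and Spint2), where 23.6% of all genes did, and the highest for 3 (Cgn, Jup and Esrp2), where 22.2% did. Marveld3 rests on 2 and 0 counts there. In a fit without replicate 3 of both groups, chosen after the data were seen, 6 genes were called higher in Foxa2+ CM and 5 lower, where 10.5% and 6.96% of 15093 genes were called. Cldn6 (log2 1.64, SE 0.30, adjusted p = 4.9e-06), Marveld2 (log2 0.93, SE 0.27, adjusted p = 0.0066) and Ocln (log2 1.28, SE 0.43, adjusted p = 0.023) were then called higher, together with Dsc2, Krt19 and Crb3. Esrp1 (log2 -0.69, SE 0.10, adjusted p = 2.9e-08) was called lower, with Grhl2, Elf3, Pkp3 and Dsg2. Of 7 blood and endothelial markers, 5 were highest in replicate 3 of both CM groups (Cdh5, Tal1, Gata1, Pecam1 and Tek), Etv2 was lowest there in both, and Lmo2 was lowest in Foxa2+ CM and highest in Foxa2- CM. Cdh5 stood at 13.6 CPM in the Foxa2+ sample and 43.4 CPM in the Foxa2- sample, and the haematopoietic factor Tal1 at 112 and 101 CPM against 34.9 to 58 CPM in the other CM samples. Their part in the difference was not tested.

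The third comparison asked whether haematopoietic mesoderm differed from CM. Of 37 genes tested, 3 were called higher and 13 lower in Flk1+ high than in Foxa2+ CM (11.6% and 11.2% of all genes), and 4 higher and 15 lower than in Foxa2- CM (11.3% and 10.3%). The median log2 fold change was -0.53 and -0.47, against 0.03 and 0.02 over all genes. Both comparisons share the Flk1+ high samples. Without Flk1+ high replicate 2 the number lower than in Foxa2+ CM was 8, and without Flk1+ high replicate 1 the number higher than in Foxa2- CM was 2. In both comparisons, 11 genes were lower (Epcam, Cgn, Dsp, Pkp1, Pkp3, Krt8, Krt18, Krt19, Esrp1, Esrp2 and Spint2) and 3 higher (Cldn4, Ocln and Tjp1). All 3 keratins with appreciable reads in CM were lower: Krt19 by 6.25-fold against Foxa2+ CM (log2 -2.64, SE 0.35, adjusted p = 0.0011), Krt18 by 1.94-fold (log2 -0.96, SE 0.13, adjusted p = 0.001) and Krt8 by 1.5-fold (log2 -0.58, SE 0.14, adjusted p = 0.014). The Krt8 call was lost without Flk1+ high replicate 2.

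Other genes with large differences were Pkp3, 4.51-fold lower than in Foxa2+ CM (log2 -2.17, SE 0.41, adjusted p = 0.0052), Esrp1, 4.21-fold lower (log2 -2.08, SE 0.50, adjusted p = 0.016), and Esrp2, 4.15-fold lower (log2 -2.05, SE 0.32, adjusted p = 0.0021). The Esrp1 call was lost without either Flk1+ high sample. Dsp was 2.35-fold lower (log2 -1.23, SE 0.22, adjusted p = 0.0045), and Pkp1 3.47-fold lower with a call that 2 of 10 fits with a sample left out kept. Dsc2 and Crb3 were called lower than in Foxa2+ CM only, and Cdh1, Cldn7, Dsg2 and Elf3 than in Foxa2- CM only. A call in 1 comparison alone does not show a difference between the CM groups. Only Crb3 and Dsg2 of these were called in the CM fit, and not Cdh1, Cldn7, Dsc2 or Elf3. Elf3 nearly passed against Foxa2+ CM (edgeR adjusted p = 0.051), as did Dsc2 against Foxa2- CM (edgeR adjusted p = 0.064). Cdh1 in Flk1+ high lay within the range of Foxa2+ CM (log2 0.09, SE 0.14) and below all Foxa2- CM samples (log2 -0.45, SE 0.14, adjusted p = 0.045), a call that 2 of 10 fits with a sample left out kept.

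The genes higher in Flk1+ high were all of the tight junction. Tjp1 was 1.65-fold above Foxa2+ CM (log2 0.73, SE 0.11, adjusted p = 0.0015). Cldn4 was 7.94-fold above it (log2 2.99, SE 0.48, adjusted p = 0.0026), and Ocln 3.03-fold (log2 1.60, SE 0.47, adjusted p = 0.037), a call that 2 of 10 fits with a sample left out kept. Against Foxa2- CM Tjp3 joined them (log2 1.32, SE 0.41, adjusted p = 0.048) and lost its call in each of the 10 fits. Replicate 1 of Flk1+ high had the higher value for Cldn4, Ocln, Marveld2, Grhl2, St14 and Dsg2, and replicate 2 for Dsp and Pkp2. Tjp1 is also a scaffold of endothelial junctions, and haemato-endothelial markers summed to 967 and 1292 CPM in Flk1+ high against 218 to 362 CPM in CM, whose part in these levels was not tested.

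Endoderm and Flk1+ high were compared last. Of 37 genes, 29 were called higher in endoderm (16.4% of all genes) and none lower (16.2%), with 1 lower at an unadjusted p under 0.05 in edgeR and 0 called lower by DESeq2. Without Flk1+ high replicate 2, 2 genes were called lower. The median log2 fold change was 2.97 (0.00 over all genes). Cdh1 was 42.8-fold higher (log2 5.42, SE 0.16, adjusted p = 4.2e-07), Esrp1 42.5-fold (log2 5.41, SE 0.55, adjusted p = 0.00012), Cldn7 41.1-fold (log2 5.36, SE 0.36, adjusted p = 1.3e-05) and Epcam 12-fold (log2 3.59, SE 0.24, adjusted p = 1.3e-05). Tjp1 (log2 -0.26, SE 0.12), Cldn4 (log2 -0.49, SE 0.49) and Pkp1 (log2 -1.78, SE 0.76, adjusted p = 0.11) lay lower in endoderm without passing the test. Krt18 was 1.79-fold (adjusted p = 0.0014) and Krt8 1.54-fold (adjusted p = 0.01) higher in endoderm.

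Across all comparisons, 26 of 37 genes were called higher in endoderm than in each of the 3 other groups, as were 9.68% of all genes. In 6 genes the groups formed a staircase, with endoderm called above and Flk1+ high called below both CM groups: Epcam, Cgn, Pkp3, Esrp1, Esrp2 and Spint2 (0.995% of all genes). Cdh1, Cldn6, Cldn7, Crb3 and Rab25 did not, being at a low level in all mesoderm. In CPM, both endoderm samples lay above all 8 others for 29 of the 37 genes tested (18.4% of all genes) and below all 8 others for none (16.2%). Cldn3, Cldn9, Cldn23, Marveld3, Tjp3 and Ovol2, which were too low for the CM fit, are among both the 26 and the 29.

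Genes of the same pathways outside the 39 were counted from a list of 90 further junction, keratin and epithelial genes that matched the annotation. In endoderm against Foxa2+ CM, 60 were tested, 23 were called higher and 10 lower, where 18.3% and 16.7% of all genes were. The number lower is thus near the share of all genes. By role, 6 of 14 adherens junction and nectin genes were higher and 3 lower, and 5 of 18 other tight junction and polarity genes were higher and 6 lower. The largest differences were those of Ildr1, a tricellular junction protein (14.4 and 11.9 CPM in endoderm against 0.231 to 0.563 CPM in Foxa2+ CM; log2 4.90, SE 0.32), and of the kidney cadherin Cdh6, which was lower (0.838 and 3.59 CPM against 63 to 73.8 CPM; log2 -4.89, SE 0.43). Krt17 was at 1.02 and 1.75 CPM in endoderm against 0 to 0.146 CPM in Foxa2+ CM, and P-cadherin (Cdh3) was higher at 97.3 and 123 CPM against 5.48 to 7.83 CPM (log2 4.08, SE 0.22). In CPM, Cdh6 and Cdh3 did not overlap between endoderm and any CM sample.

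Between the CM groups 52 of the 90 were tested, with 5 higher and 8 lower in Foxa2+ CM (3.81% and 2.66% of all genes). Here too the cadherins differed: Cdh6 was at 63, 73.8 and 64.3 CPM in Foxa2+ CM against 16.1, 18.6 and 23.4 CPM in Foxa2- CM (log2 1.79, SE 0.14, adjusted p = 0.0013), and Cdh3 at 5.48, 6.13 and 7.83 CPM against 23.7, 30.8 and 38.3 CPM (log2 -2.25, SE 0.22, adjusted p = 0.0025). Neither overlapped between the groups, and the CM groups differed by 3.45-fold and 4.76-fold in these cadherins. In Flk1+ high against Foxa2+ CM, 6 of 60 were higher, near the 11.6% of all genes, and 18 lower (11.2% of all genes). The largest were Cldn5, the endothelial claudin (5.89 and 3.86 CPM against 0 to 0.173 CPM; log2 5.47, SE 0.66), Cdh5 (158 and 275 CPM against 4.53 to 13.6 CPM; log2 4.63, SE 1.06) and Cdh6 (log2 -4.22, SE 0.40), followed by the ETS factor Elf5, at 0.125 and 0 CPM against 0.394 to 1.17 CPM.

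The mesenchymal genes moved the other way in part. Zeb1, a repressor of Cdh1, was at 2.98 and 11.5 CPM in endoderm, at 77.1, 97.3 and 115 CPM in Foxa2+ CM, at 49.2, 49.6 and 92.7 CPM in Foxa2- CM and at 111 and 165 CPM in Flk1+ high (log2 -3.71 for endoderm against Foxa2+ CM). Of 8 mesenchymal genes, 4 were called lower in endoderm than in Foxa2+ CM (Zeb1, Zeb2, Snai1 and Fn1), where 16.7% of all genes were. N-cadherin (Cdh2) was the 1 called higher (18.3% of all genes), at 237 and 277 CPM against 136 to 154 CPM. Against Foxa2- CM, 6 of the 8 were called lower and 0 higher (14% and 16.1% of all genes), so that Cdh2 was not called higher there. Endoderm thus held transcripts of both cadherins, Cdh1 and Cdh2, of which only Cdh1 was called above both CM groups. Surface ectoderm markers (5 genes) summed to 31.2 and 47.5 CPM in endoderm and 31.9 to 38.8 CPM in CM, with Krt5 and Krt14 near 0 as given above.

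Some limits apply to single genes. Duplicate reads were removed before counting, which caps the reads per start position. The count per exonic base reached 1.48 for Dsp, 1.34 for Krt18, 1.29 for Cdh1 and 1.18 for Cldn6, and passed 0.5 in some sample for 10 of the genes. Levels of such dense genes may be compressed, or shifted with library size, so that their differences may be understated or overstated. F11r, for example, had 1490 and 1527 counts in endoderm and 1247 to 1734 counts in CM. Exons of 12 of the genes overlap a gene on the opposite strand in GENCODE M21, by 14 bases in Crb3 to 499 bases in Dsp, and without a stated strand setting reads of the 2 cannot be told apart.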

How the data were processed

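RNA from 10 sorted samples was made into TruSeq RNA v2 libraries and sequenced as 50 nt single-end reads. The authors aligned reads to mm10 with STAR 2.5.0a, removed duplicates with Picard and deposited raw read counts per gene from HTSeq 0.6.0, 1 file per sample. The strand setting of the counting is not given in the sources used here. Rows that name no gene were left out of library sizes. Reads on no annotated feature made up 17.1 to 25.6%. Symbols, coordinates and exon lengths came from GENCODE M21 (37607 of 38924 rows matched), and promoter sequences from RefSeq (GRCm38.p6).

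Counts were tested with edgeR 4.0.16 (R 4.3.3): TMM normalization, filterByExpr defaults, quasi-likelihood F test and Benjamini-Hochberg adjustment over all genes tested. The CM groups were compared in a fit of the 6 CM samples (15284 genes), and the other 5 comparisons in a fit of all 10 samples (16180 genes). The SE was taken from the fold change and its F statistic (the size of the log2 value over the root of F). DESeq2 1.42.0, other filters, another normalization, a replicate block, other samples in the fit and each sample left out were alternatives. The fit was tested on simulated data with 200 changed genes. These were drawn from genes with higher counts only, and no shift shared by replicate 3 was simulated. The CM fit recovered 38% of log2 changes of 0.5 and 97% of those of 1.5. In these 2 runs edgeR also called 2 and 23 unchanged genes, and DESeq2 called 30 and 46. The fit of endoderm against Foxa2+ CM recovered 7% and 92.5%. Counts of reads cover counting error only in their floor of 3 counts.

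The genes and lists were chosen with earlier results of these data known. All 39 genes were accounted for. Values in every sample were given for Cdh1 and Epcam, for genes called between the CM groups, for up to 4 called genes per role with the largest change in endoderm against Foxa2+ CM, and for those called lower in endoderm or called in Flk1+ high. Of the other pathway genes, the 4 with the largest change were named. Genes named beyond this rule were chosen after their values were seen.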

Additional observations from a re-analysis of the deposited data

How the results depend on the processing

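Across 3522 recomputed values, 3316 stayed on their side of the threshold (61 of these, not called under either setting, changed sign), 136 lost a call, 70 gained one, and no called value changed sign. The comparison of the CM groups depended on the processing. The 1 gene called higher in Foxa2+ CM became 2 with no filter on low counts, 0 with a stricter filter and 0 with all 10 samples in the fit. The 2 genes called lower became 1 with a 2-fold limit, 5 with DESeq2, 4 with no filter and 0 with all 10 samples in the fit. Without replicate 3, an alternative chosen after seeing the data, 6 were higher and 5 lower. In Flk1+ high against Foxa2+ CM, the 13 lower genes became 8 with a 2-fold limit. The cause was not tested in any of these.

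Replicate numbers are shared by the groups. Same-numbered CM samples correlated at 0.480, 0.0855 and 0.580 in their deviations from the group means (15284 genes), and samples of unlike number at -0.547 to 0.285. Replicate 3 thus went with replicate 3. For replicate 2 the value did not stand out, as Foxa2+ CM replicate 2 correlated at 0.0974 with Foxa2- CM replicate 1. The labels state no pairing and the main fit used none, but a pairing is not excluded. With the replicate block, 3 genes were called higher and 9 lower in Foxa2+ CM (9.15% and 7.58% of all genes), and the counts of the other comparisons stayed within 1.5 times.

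With each sample left out in turn, the number called higher and lower ranged from 0 to 2 and from 0 to 3 between the CM groups, from 25 to 31 and 2 to 3 in endoderm against Foxa2+ CM, from 25 to 30 and 1 to 3 against Foxa2- CM, from 2 to 4 and 8 to 15 in Flk1+ high against Foxa2+ CM, from 2 to 5 and 11 to 15 against Foxa2- CM, and from 26 to 30 and 0 to 2 in endoderm against Flk1+ high. A group left with 1 sample is assumed to vary like the others. At these depths, genes under 3 counts (0.169 to 0.279 CPM) cannot be told from absent.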
